A study of Homo sapiens with 8 samples.

Results

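The MYC, MAX and MXD network was taken here as 10 genes: MYC, MYCN, MYCL, MAX, MXD1, MXD3, MXD4, MXI1, MNT and MLX. Each gene was read from the probe sets that the platform annotation assigns to it alone, and was represented by the one with the highest mean signal. In all, 31 of the 41097 probe sets that name a single gene belong to 9 of the 10 genes, and 20 of those 31 had a signal above the median of the whole table on 2 arrays or more. All 9 genes had such a probe set and were among the 14162 genes tested. MXD4 was not measured, because each of its 3 probe sets also names another gene.

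The proteins of this network are basic helix-loop-helix leucine zipper factors that bind DNA in pairs. MYC, MYCN and MYCL pair with MAX, bind E-boxes such as CACGTG and mostly activate genes for growth, nucleotide and ribosome synthesis. The MXD proteins, MXI1 and MNT also pair with MAX, bind the same letters and recruit the SIN3 and HDAC corepressor. MLX pairs with the glucose-sensing factors of the Mondo family and with some MXD proteins. In blood cells, MYC is known to be high in proliferating precursors, and MXD1 and MXI1 are known to be induced as myeloid cells differentiate.

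Expression was measured on 8 Affymetrix arrays from HEL, an established line from a human erythroleukaemia whose JAK2 kinase carries an activating mutation, grown in RPMI medium with serum. The groups, of 2 arrays each, were cells given CEP701 (lestaurtinib, which inhibits JAK2, FLT3 and other kinases) at 0.5 µM for 16 h, cells given DMSO for 16 h, cells carrying a stable lentiviral pLKO shRNA against the arginine methyltransferase PRMT5, and cells carrying a scramble shRNA. The shRNA groups thus share the viral vector, which the labels do not give the drug groups, and 1 shRNA represents the knockdown. The series set out to compare the drug profile with the knockdown profile. The labels do not say whether replicates were separate cultures, so p-values rest on a spread that may be technical only. Signals are intensities in arbitrary units, each array scaled by the authors to the same trimmed mean, and log2 differences are of the signal plus 10.

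The 4 arrays of the drug arm and the 4 of the shRNA arm stood apart. Pearson's r across genes was 0.964 to 0.978 within a group and 0.954 to 0.972 across the 2 groups of an arm. Across arms it was 0.804 to 0.845. The erythroid and megakaryocyte markers measured here, 10 of 14 listed and among them GATA1, TAL1, KLF1 and ITGA2B, passed the signal filter. The 6 monocyte and granulocyte markers summed to between 50216 and 78394 in the PRMT5 shRNA group and between 66014 and 74950 in the scramble group, against 7773 to 9060 with CEP701 and 5392 to 5405 with DMSO. MPO averaged 14597 with PRMT5 shRNA and 18634 with scramble, against 33.8 with CEP701 and 31.1 with DMSO. In scramble against DMSO cells, 25.5% of all genes passed as higher and 20.3% as lower. Of the 10 erythroid and megakaryocyte markers, 3 then passed as higher and 1 as lower, and the platelet chemokine PF4 averaged 35492 in scramble and 1853 in DMSO cells. CD14, ELANE and S100A9 among the monocyte and granulocyte markers, CDH1 and EPCAM among 7 fibroblast and epithelial markers and CD3D among 5 lymphocyte markers were above the median of all values, 59.98, only on shRNA-arm arrays, through which they entered the test. Of the other monocyte and granulocyte markers, LYZ and CSF1R passed as higher. MPO did too, but its drug-arm means lay below that median, so it needed the shRNA-arm arrays to enter the test. Of the other 5 fibroblast and epithelial markers 2 passed as lower, and of the other 4 lymphocyte markers 1 did. Between the groups of an arm, the calls among all markers were 1 erythroid marker higher and 1 lower with CEP701. In a fit with the replicate as a block in the shRNA arm, 2 erythroid markers were higher and 2 lower with CEP701, and LYZ was higher. In bulk samples, fewer cells of a type and less RNA per cell cannot be told apart.

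PRMT5, the target of the shRNA, averaged 489 ± 247 in PRMT5 shRNA cells and 1389 ± 572 in scramble cells (SD, n = 2), 35.2% of the scramble mean. Its log2 difference was -1.52 ± 0.35 (SE; limma, Benjamini-Hochberg adjusted p = 0.217). It was 2887 ± 193 with CEP701 and 3320 ± 140 with DMSO.

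**Figure D1:**
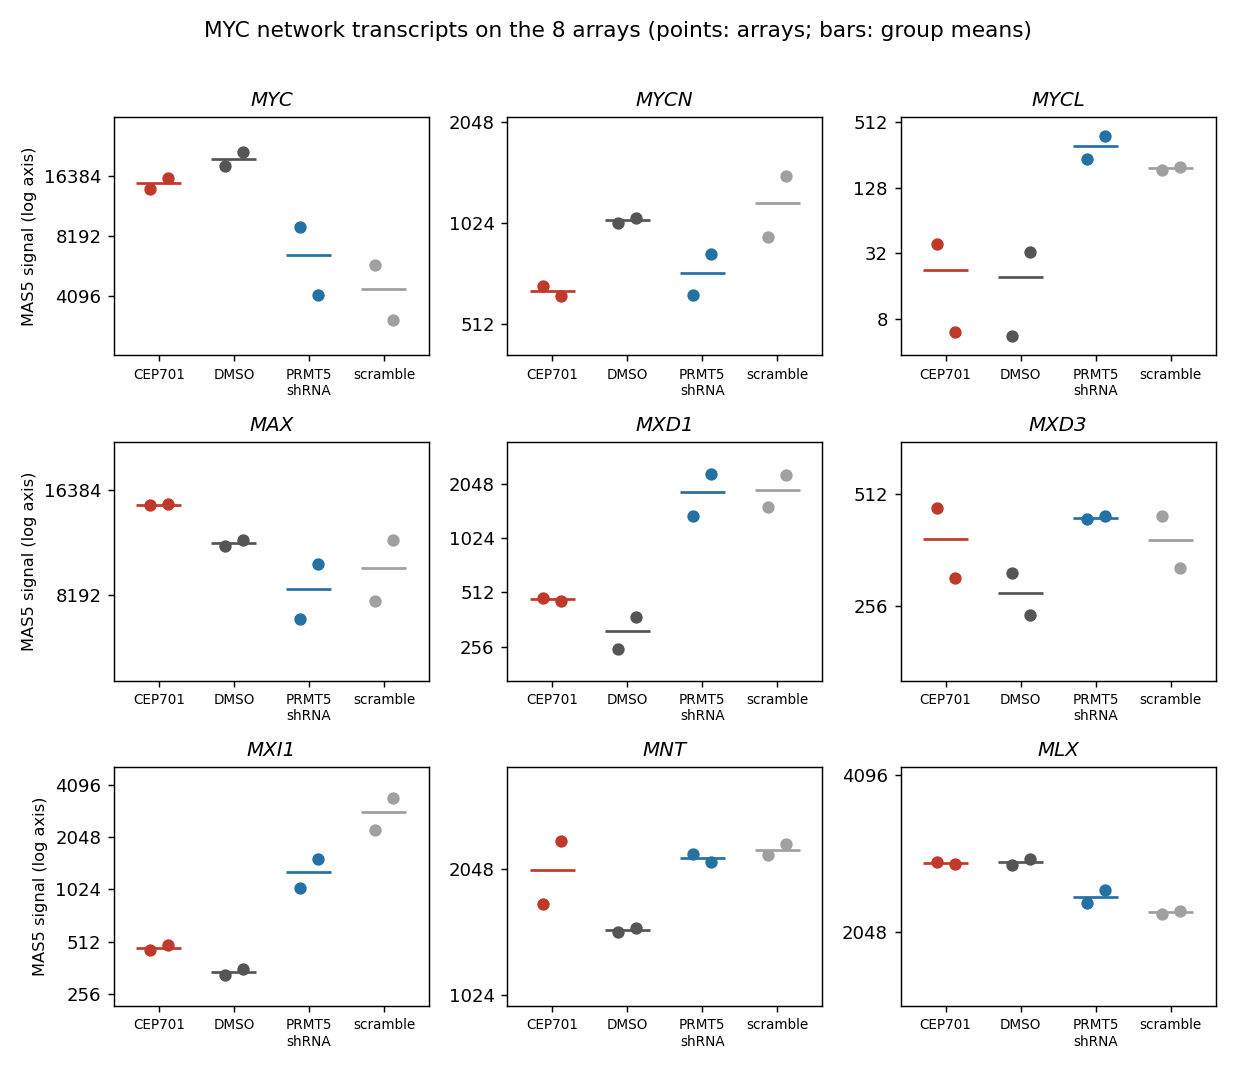
MAS5 signal (logarithmic axis, arbitrary units) of the 9 measured genes on the 8 arrays, with a point per array and a bar at each group mean. MYC lies higher and MXD1 and MXI1 lie lower on all 4 drug-arm arrays than on all 4 shRNA-arm arrays.

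MYC, the factor that gives the network its name, had signals of 14143 and 16081 in CEP701 cells, against 18495 and 21672 in DMSO cells. Both CEP701 values lay below both DMSO values. In PRMT5 shRNA cells MYC had 9097 and 4146, against 5852 and 3099 in scramble cells. There the groups overlapped, and in both groups replicate 1 was the higher array. All 4 values of the shRNA arm lay below all 4 of the drug arm.

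MYCN, the neuroblastoma paralogue, had 663 and 618 with CEP701, against 1026 and 1062 with DMSO. In the shRNA arm it had 625 and 830 with PRMT5 shRNA, against 932 and 1416 with scramble. Both treated groups lay wholly below their own controls. MYCL, the paralogue first found in lung cancer, had 39.4 and 6.05 with CEP701, against 5.58 and 33.1 with DMSO, all below the median of all values, 59.98. It had 234 and 381 with PRMT5 shRNA, against 187 and 200 with scramble. MYCL was thus above that median only on the shRNA-arm arrays, and passed the signal filter through them.

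MAX, the shared partner, had 14790 and 14918 with CEP701, against 11338 and 11751 with DMSO. It had 7016 and 10033 with PRMT5 shRNA, against 7882 and 11739 with scramble. The CEP701 arrays carried the 2 highest MAX values of the series, and the shRNA groups overlapped.

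Among the antagonists, MXI1 had 456 and 487 with CEP701, against 328 and 356 with DMSO. It had 1048 and 1533 with PRMT5 shRNA, against 2234 and 3439 with scramble. No 2 of the 4 groups overlapped: MXI1 was lowest with DMSO and highest with scramble.

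MXD1, an antagonist induced in differentiating myeloid cells, had 476 and 462 with CEP701, against 250 and 375 with DMSO. It had 1363 and 2322 with PRMT5 shRNA, against 1515 and 2285 with scramble. The shRNA groups overlapped almost fully, and both lay above the drug arm.

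MNT, an antagonist found in most cell types, had 1691 and 2396 with CEP701, against 1445 and 1482 with DMSO. It had 2222 and 2133 with PRMT5 shRNA, against 2210 and 2350 with scramble. Only the DMSO arrays stood apart, below the other 6. MXD3, an antagonist also seen in proliferating cells, had 470 and 304 with CEP701, against 313 and 242 with DMSO. It had 438 and 445 with PRMT5 shRNA, against 446 and 323 with scramble, and neither pair of groups separated.

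MLX had 2782 and 2759 with CEP701, against 2744 and 2821 with DMSO. It had 2323 and 2461 with PRMT5 shRNA, against 2217 and 2244 with scramble. The drug groups interleaved, and the shRNA arm lay lower throughout.

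Promoter windows of 250 bases before to 50 after the start were taken from RefSeq (GRCh38.p14) for 9 of the 10 genes, as 12 windows. The network's own binding letters were searched in them on both strands: the palindrome CACGTG, and CACGCG, which also stands for its complement CGCGTG. The palindrome was in 3 of the 12 windows, those of MNT, MLX and MXD4, and in 7.26% of all 35116 windows. The other word was in the windows of MXD3 and MXI1, and in 11.4% of all windows. These matches describe the letters and are not binding sites measured here. The stretches of MNT, MLX and MXI1 are shown because they carry these letters in members measured here. Capitals mark the match, and each sequence runs 5′ to 3′ on the gene's strand.
MNT (chr17:2401218-2401283, minus strand): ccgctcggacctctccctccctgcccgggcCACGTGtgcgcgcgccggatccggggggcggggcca
MLX (chr17:42567020-42567085, plus strand): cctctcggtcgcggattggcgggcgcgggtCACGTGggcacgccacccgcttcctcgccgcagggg
MXI1 (chr10:110225974-110226039, plus strand): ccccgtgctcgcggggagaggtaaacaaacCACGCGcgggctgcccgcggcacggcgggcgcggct

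The comparison of CEP701 with DMSO asked what 16 h of kinase inhibition did to these transcripts. None of the 9 members passed the test across all genes (limma, 4 groups in one fit, Benjamini-Hochberg adjusted p at most 0.05), where 5.78% of all genes passed. MYCN and MNT alone had an unadjusted p under 0.05 (limma). The measured differences were negative for MYC and MYCN and positive for MAX and the antagonists. MYC differed by -0.41 ± 0.36 on the log2 scale (SE; adjusted p = 0.529), and MYCN by -0.70 ± 0.23 (adjusted p = 0.105). MAX differed by 0.36 ± 0.21, MXD1 by 0.60 ± 0.30, MXI1 by 0.45 ± 0.25, MNT by 0.46 ± 0.18 and MXD3 by 0.45 ± 0.28, with adjusted p from 0.159 for MNT to 0.362 for MXD3. MLX (-0.01 ± 0.13) and MYCL (0.12 ± 0.65) were near 0. The CEP701 and DMSO arrays did not overlap for 6 of the 9, MYC and MYCN lower and MAX, MXD1, MXI1 and MNT higher, which was also so for 62% of all genes (36.3% higher, 25.7% lower).

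The calls for these transcripts depended on which arrays set the spread. The median gene differed between replicates by 0.20 (log2) with CEP701 and 0.19 with DMSO, against 0.33 with PRMT5 shRNA and 0.32 with scramble. Fitted on the 4 drug-arm arrays alone, MYC (adjusted p = 0.0374) and MYCN (adjusted p = 6.21e-03) passed as lower and MAX (adjusted p = 0.0239) as higher, where 22.7% of all genes passed (12.6% higher, 10.1% lower). With a replicate block in the shRNA arm, MXD1 (adjusted p = 0.0401) and MXI1 (adjusted p = 0.0373) passed as higher besides these 3, where 22.3% of all genes passed (12.6% higher, 9.71% lower). The log2 differences were the same in these fits. Scaled to the poly-A control probe sets, which put the median of all genes at -0.40, against 0.10 as deposited, MAX (-0.14), MXD3 (-0.057), MXI1 (-0.049) and MNT (-0.045) changed sign. MYCN alone then passed, as lower (-1.20; adjusted p = 0.0202). The actin controls, whose 5′ signal divided by the 3′ signal is a sign of RNA integrity, gave 0.116 and 0.161 with CEP701, against 0.199 and 0.198 with DMSO, and its part in these values was not tested.

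**Figure D2:**
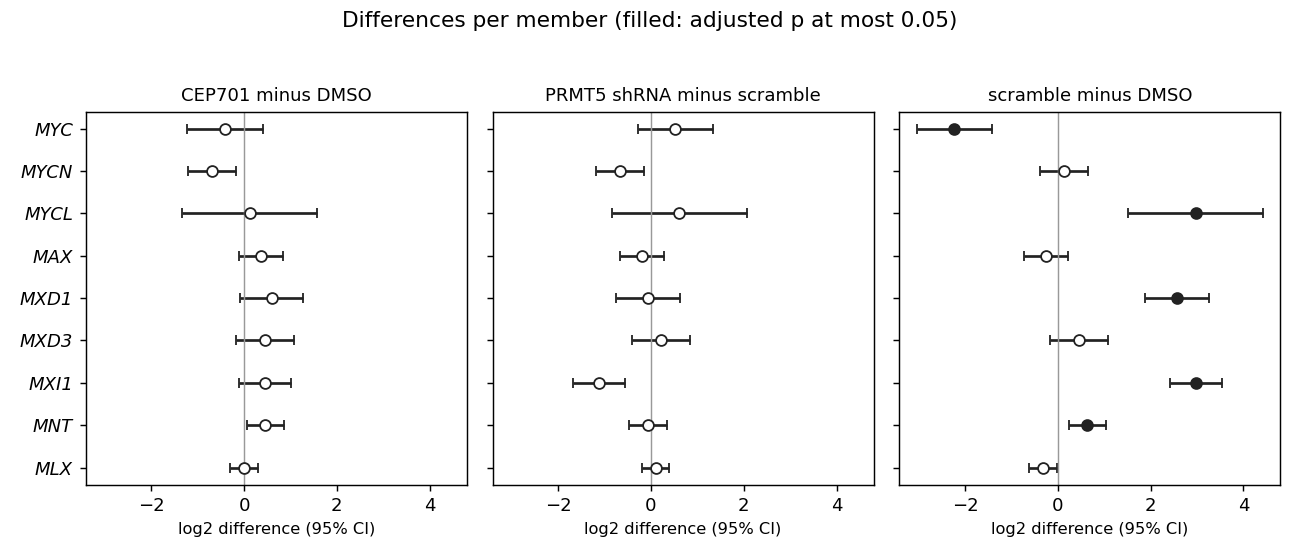
Log2 difference of each of the 9 genes with its 95% confidence interval in 3 comparisons, from the fit of all 8 arrays; filled points had an adjusted p at most 0.05. No gene was filled for CEP701 minus DMSO or PRMT5 shRNA minus scramble, and 5 were filled for scramble minus DMSO, among them MYCL, which entered the test only through the shRNA-arm arrays.

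Next, PRMT5 shRNA cells were set against scramble cells to read the knockdown. MXI1 had the largest measured difference, -1.12 ± 0.25 (SE; 2.18-fold lower; adjusted p = 0.199), and was lower by 1.09 and 1.16 within the replicate pairs. MYCN differed by -0.67 ± 0.23 (adjusted p = 0.597) and MYC by 0.53 ± 0.36 (adjusted p = 0.855). None of the 9 members passed, where 0.148% of all genes passed, and MXI1 and MYCN had an unadjusted p under 0.05 (limma). The groups did not overlap for MXI1 and MYCN, which were lower, and for MYCL and MLX, which were higher, as they did not for 30.2% of all genes (16.1% lower, 14.1% higher). Fitted on the 4 shRNA-arm arrays alone, 0% of all genes passed. MYCL differed by 0.61 ± 0.65, and the remaining members, MLX included, by -0.20 to 0.21.

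The 2 arrays that share a title suffix deviated together in the shRNA arm, so the values with that suffix as a block stand beside these. With the replicate block, MXI1 (-1.12 ± 0.14; adjusted p = 2.16e-03) and MYCN (-0.67 ± 0.14; adjusted p = 0.0396) passed as lower and MYC (0.53 ± 0.11; adjusted p = 0.0427) as higher, where 1.74% of all genes passed. PRMT5 was then -1.52 ± 0.12 (adjusted p = 8.92e-05). MYC was higher in PRMT5 shRNA than in scramble cells by 0.64 in one pair and 0.42 in the other, although replicate 2 lay below replicate 1 by 1.13 with PRMT5 shRNA and by 0.91 with scramble. Other members differed between the pairs in the opposite direction. Replicate 2 exceeded replicate 1 by 0.54 and 0.62 for MXI1, by 0.76 and 0.59 for MXD1, by 0.52 and 0.57 for MAX and by 0.40 and 0.60 for MYCN, PRMT5 shRNA value first each time. In the same pairs the actin ratio was 0.187 and 0.335 with PRMT5 shRNA, against 0.141 and 0.179 with scramble, and its part was not tested.

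The effects of the drug and of the knockdown were set against each other as 1 contrast. MXI1 had the largest difference between the effects, 1.58 ± 0.35 (SE; adjusted p = 0.0655), from 0.45 with CEP701 and -1.12 with PRMT5 shRNA. None of the 9 passed, where 1.43% of all genes passed, and MXI1 alone had an unadjusted p under 0.05 (limma). Without PRMT5 shRNA replicate 2 the difference for MXI1 was 1.85 (adjusted p = 0.0346), and without scramble replicate 1 it was 1.89 (adjusted p = 0.0233). With the replicate block 3 members passed, MXI1, MAX (0.56 ± 0.12; adjusted p = 0.0117) and MYC (-0.94 ± 0.16; adjusted p = 2.99e-03), where 17.3% of all genes passed. MYCN had nearly equal effects, -0.70 and -0.67, and the 95% interval of their difference ran from -0.77 to 0.70.

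The scramble and DMSO cells are both controls, but differ in vector, and possibly in selection, culture and stock, which cannot be told apart. The differences here reached 2.98 on the log2 scale. MYC was 4.69-fold lower in scramble than in DMSO cells (log2 difference -2.23 ± 0.36, SE; adjusted p = 8.84e-04). The antagonists MXI1 and MXD1 were 7.91-fold higher (2.98 ± 0.25; adjusted p = 1.71e-05) and 5.92-fold higher (2.56 ± 0.30; adjusted p = 1.43e-04). MYCL had 187 and 200 in scramble cells, against 5.58 and 33.1 in DMSO cells, and is left out of the calls because it entered the test only through the shRNA-arm arrays. MNT was higher by 0.64 ± 0.18 (adjusted p = 0.0167). The 6 monocyte and granulocyte markers, at 66014 to 74950 summed in scramble against 5392 to 5405 in DMSO cells, moved with these values, and their part in them was not tested.

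In all, 4 of the 8 members other than MYCL passed, 3 as higher and 1 as lower, where 45.8% of all genes passed (25.5% higher, 20.3% lower), so the count is near the background. The scramble and DMSO arrays did not overlap for 6 of these 8, MYC and MLX lower and MXD1, MXD3, MXI1 and MNT higher, as for 74.1% of all genes (33.3% lower, 40.8% higher). MAX (-0.26 ± 0.21), MYCN (0.14 ± 0.23), MXD3 (0.45 ± 0.28) and MLX (-0.32 ± 0.13; adjusted p = 0.0769) did not pass. MLX passed as lower under median scaling (-0.59; adjusted p = 5.63e-03) and poly-A scaling (-0.72; adjusted p = 0.0274), and MAX under poly-A scaling (-0.66; adjusted p = 0.0314). The MNT call was lost without DMSO replicate 1 (adjusted p = 0.0892), without DMSO replicate 2 (adjusted p = 0.0780), without scramble replicate 2 (adjusted p = 0.0673), under median scaling (adjusted p = 0.114) or poly-A scaling (adjusted p = 0.526), and for the mean of its probe sets (adjusted p = 0.442). With the replicate block MAX and MLX also passed as lower, making 6 of these 8, where 55.1% of all genes passed (29.9% higher, 25.2% lower).

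Other probe sets of the same genes were a check on these values. MYC, MXI1 and MXD3 have only 1 probe set each and MYCL only 1 kept, so their values had no such check. The second MXD1 probe set went the same way as the first: 0.87 ± 0.23 with CEP701 (adjusted p = 0.0603), -0.20 ± 0.23 with PRMT5 shRNA and 2.71 ± 0.23 in scramble against DMSO (adjusted p = 1.43e-05). Its signals were 313 and 323 with CEP701, against 165 and 176 with DMSO. All 5 MAX probe sets had negative values in scramble against DMSO, from -0.86 to -0.17, none of them passing, but with CEP701 they ranged from -0.44 to 0.36. MLX had 2 further probe sets that passed as lower in scramble cells (-0.86, adjusted p = 9.73e-03, and -0.79, adjusted p = 0.0420), and the same probe sets were -0.64 and -0.56 with CEP701, where the brightest was -0.01. The second MNT probe set differed by -0.14 ± 0.47 in scramble against DMSO and by 1.16 ± 0.47 in PRMT5 shRNA against scramble (adjusted p = 0.758), unlike the first. The second MYCN probe set had 0.60 ± 0.46 with CEP701, opposite in sign to the first, at signals of 47.1 and 65.8 with CEP701, against 32.4 and 34.3 with DMSO. The counts of this check are adjusted over all 26719 kept probe sets that name a single gene, of which 4.79% passed with CEP701, 0.131% with PRMT5 shRNA and 41.7% in scramble against DMSO.

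**Figure D3:**
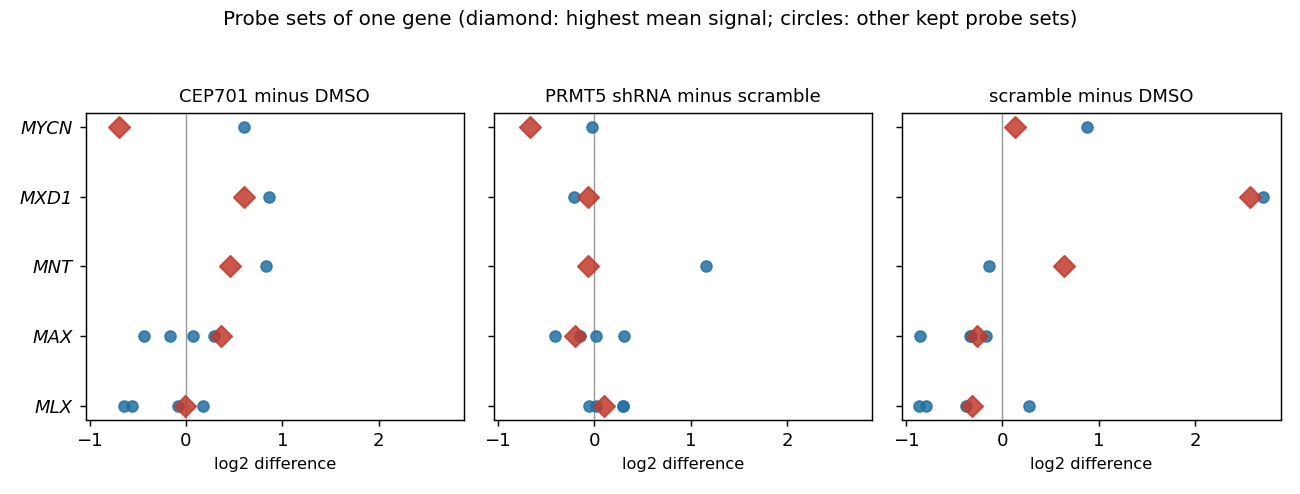
Log2 difference for every kept probe set of MYCN, MXD1, MNT, MAX and MLX in 3 comparisons; the diamond is the probe set with the highest mean signal. The 2 MXD1 probe sets lie close together in each panel, whereas MYCN and MLX probe sets spread from -0.70 to 0.60 and from -0.64 to 0.18 with CEP701.

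Over the 8 arrays, the genes whose pattern came closest to that of MYC were TIMM50, a subunit of the mitochondrial inner membrane translocase, PUSL1, BAG2, a co-chaperone, UTP11, a factor of ribosomal RNA processing, and RPP40, a subunit of RNase P. Likeness was the root mean square difference of log2 values after each gene was centred on its mean. It was 0.164 for TIMM50, 0.167 for PUSL1, 0.170 for BAG2, 0.198 for UTP11 and 0.200 for RPP40, against a median of 1.096 over all genes. All 5 were lower in scramble than in DMSO cells by 1.94 to 2.42 on the log2 scale. In each of them CEP701 minus DMSO was negative, from -0.78 to -0.38, and PRMT5 shRNA minus scramble was positive, from 0.26 to 0.50. The genes were chosen for likeness to MYC on these same 8 arrays. Their shared directions follow from that choice and add no evidence on the MYC differences.

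**Figure D4:**
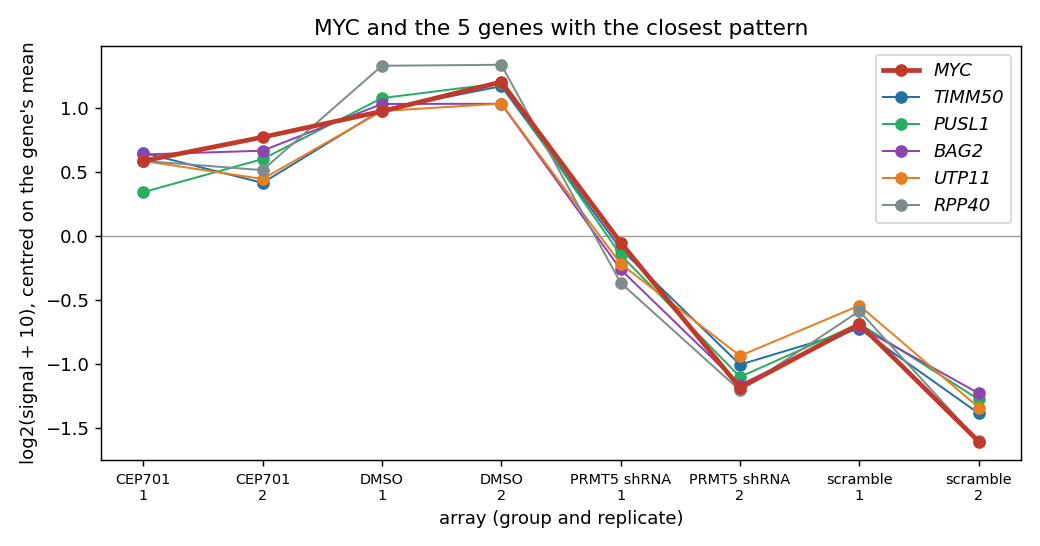
Log2(signal + 10), centred on each gene's mean, on the 8 arrays for MYC (thick line) and the 5 genes with the closest pattern. All 6 lie above 0 on the drug-arm arrays and below 0 on the shRNA-arm arrays, and replicate 1 lies above replicate 2 in both shRNA groups. The 5 genes were chosen for this likeness on the same arrays.

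Genes known to be activated by MYC were, like MYC itself, mostly lower in scramble than in DMSO cells. Of 34 measured of 40 listed, 21 were called lower and none higher in scramble than in DMSO cells, where 20.3% of all genes passed as lower. The list's median was -0.86 where the median of all genes was 0.11. SRM, the spermidine synthase, averaged 1249 ± 581 in scramble and 8985 ± 325 in DMSO cells (SD, n = 2; log2 difference -2.92; adjusted p = 9.85e-05). ODC1, the first enzyme of polyamine synthesis, averaged 5122 ± 2006 in scramble and 29788 ± 244 in DMSO cells (-2.59; adjusted p = 1.54e-04). CDC25A, a cell cycle phosphatase, averaged 268 ± 50.1 in scramble and 2449 ± 285 in DMSO cells (-3.15; adjusted p = 2.20e-04), and MRTO4, a factor of ribosome assembly, 972 ± 227 in scramble and 4576 ± 22.4 in DMSO cells (-2.24; adjusted p = 4.45e-04). The number of targets called changed when 1 array was left out, as did the number over all genes. The log2 difference then ran from -3.41 to -2.43 for SRM and from -3.00 to -2.19 for ODC1. It ran from -3.34 to -2.97 for CDC25A and from -2.48 to -2.00 for MRTO4. Under the replicate block 25 targets passed as lower and 2 as higher, where 25.2% and 29.9% of all genes did.

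With CEP701, 31 of the 34 targets had a negative difference, where 41.9% of all genes had one, and the median was -0.46 where that of all genes was 0.10. In the fit of all 8 arrays CDK4, a kinase of the G1 phase, passed as lower and no target as higher, where 2.04% of all genes passed as lower and 3.74% as higher. CDK4 averaged 6442 ± 620 with CEP701 and 11347 ± 257 with DMSO (SD, n = 2; log2 difference -0.82; adjusted p = 0.0190). Fitted on the drug-arm arrays alone 22 of the 34 passed as lower, where 10.1% of all genes did, and with the block in the shRNA arm 21 did, where 9.71% of all genes did. ODC1, SRM and MRTO4 were among them in both fits. ODC1 averaged 12758 ± 893 with CEP701 and 29788 ± 244 with DMSO (-1.22; adjusted p = 0.0521 in the fit of all arrays). SRM averaged 4281 ± 198 with CEP701 and 8985 ± 325 with DMSO (-1.07; adjusted p = 0.0841). The CDK4 call was lost when any 1 drug-arm array was left out, with log2 differences from -0.92 to -0.72. More targets passed when any 1 shRNA-arm array was left out, and so did more of all genes.

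With PRMT5 shRNA none of the 34 targets passed in the fit of all 8 arrays, where 0.148% of all genes passed, and the median was 0.08 where that of all genes was 0.0034. That median ran from -0.22 without PRMT5 shRNA replicate 1 to 0.33 without scramble replicate 1. The lowest p belonged to the glycolytic enzymes LDHA (-0.72; adjusted p = 0.0802) and ENO1 (-0.76; adjusted p = 0.103). LDHA averaged 26994 ± 854 with PRMT5 shRNA and 44364 ± 828 with scramble. With the replicate block 3 targets passed as lower, LDHA, ENO1 and the cyclin CCND2, and ODC1 passed as higher (0.55), where 1.74% of all genes passed. After quantile normalization LDHA (-0.72; adjusted p = 0.0145) and ENO1 (-0.76; adjusted p = 0.0347) passed as lower.

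**Figure D5:**
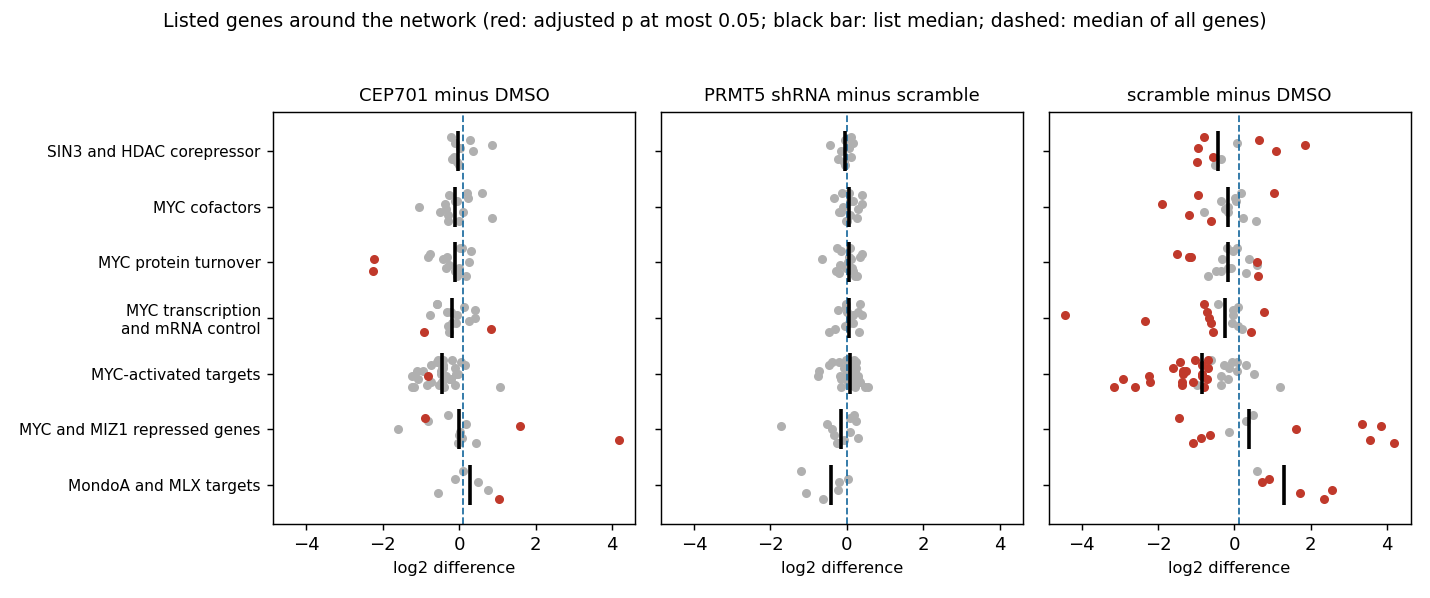
Log2 differences of the measured genes of 7 lists in 3 comparisons, with a point per gene, a black bar at the list median and a dashed line at the median of all genes; red points had an adjusted p at most 0.05. The MYC-activated targets lie left of the dashed line for CEP701 (median -0.46) and for scramble minus DMSO (-0.86), and around it for PRMT5 shRNA (0.08).

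CACGTG was in the promoter windows of 16 of the 31 target genes with a window, and in 16 of their 40 windows (40%), against 7.26% of all windows. The list was made of textbook MYC targets, so this share is not independent of the motif. Of the targets tested, 9 of 15 with CACGTG were called lower in scramble cells, with a median of -0.86. So were 6 of 12 whose windows lacked it (median -0.69) and 6 of 7 for which no window was at hand (median -1.09). With CEP701 the medians were -0.52, -0.41 and -0.45 in the same order. The stretches around CACGTG, in capitals, are shown for the 5 targets named above that hold it. ODC1 has 2 matches in 1 window, of which the one before the start is printed, and for LDHA, with 2, and CDK4, with 3, the one closest to the start is printed.
SRM (chr1:11060182-11060247, minus strand): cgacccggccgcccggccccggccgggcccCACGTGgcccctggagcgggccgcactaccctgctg
ODC1 (chr2:10448006-10448071, minus strand): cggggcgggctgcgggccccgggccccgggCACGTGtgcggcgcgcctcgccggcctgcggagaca
MRTO4 (chr1:19251789-19251854, plus strand): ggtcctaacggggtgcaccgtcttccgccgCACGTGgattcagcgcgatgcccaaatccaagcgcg
CDK4 (chr12:57752376-57752441, minus strand): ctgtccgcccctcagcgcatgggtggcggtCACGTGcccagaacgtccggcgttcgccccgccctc
LDHA (chr11:18394446-18394511, plus strand): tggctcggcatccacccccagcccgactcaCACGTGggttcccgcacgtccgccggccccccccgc

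Genes listed as repressed by MYC with MIZ1 went both ways. Of 12 measured of 14, 5 were called higher and 4 lower in scramble than in DMSO cells, where 25.5% of all genes passed as higher and 20.3% as lower. The cell cycle inhibitor CDKN1A averaged 4137 ± 129 in scramble and 222 ± 50.8 in DMSO cells (SD, n = 2; log2 difference 4.18; adjusted p = 7.71e-07), and CDKN1C 1892 ± 197 in scramble and 180 ± 33.0 in DMSO cells (3.33; adjusted p = 3.44e-06). NDRG1, a stress and differentiation gene, was also higher (3.85), as were THBS1, the secreted thrombospondin 1 (3.56), and the cyclin CCND1 (1.62). The genes called lower were CEBPA (-1.46), CLU (-1.09), NDRG2 (-0.88) and GADD45A (-0.65). With CEP701, THBS1 (4.18; adjusted p = 1.76e-03) and NDRG1 (1.60; adjusted p = 0.0460) were called higher and CEBPA, a myeloid transcription factor, lower (-0.89; adjusted p = 0.0358). Over all genes 3.74% passed as higher and 2.04% as lower. CDKN1A averaged 214 ± 23.6 with CEP701 and 222 ± 50.8 with DMSO. The NDRG1 and CEBPA calls were lost when any 1 drug-arm array was left out, and the THBS1 call without CEP701 replicate 1 (adjusted p = 0.0565). In the fit with the replicate block in the shRNA arm and on the drug-arm arrays alone, 5 of the 12 passed with CEP701. Of these, 3 were higher and 2 lower. Besides THBS1, NDRG1 and CEBPA, they were BCL2, an inhibitor of apoptosis, as lower (-0.82) and the chaperone CLU as higher (0.44). Over all genes 22.3% and 22.7% passed in these fits. With PRMT5 shRNA none of the 12 passed. NDRG1 averaged 1004 ± 562 with PRMT5 shRNA and 3199 ± 1239 with scramble (-1.73; adjusted p = 0.199), and passed as lower with the replicate block (adjusted p = 7.30e-04) and without PRMT5 shRNA replicate 2 (-2.32; adjusted p = 0.0442).

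The 6 listed targets of MLX and its partner MondoA all had a positive difference in scramble against DMSO cells, and 5 passed as higher, where 25.5% of all genes did. The list median was 1.31 where that of all genes was 0.11. TXNIP, an inhibitor of glucose uptake and a standard readout of these factors, averaged 17749 ± 4992 in scramble and 3408 ± 203 in DMSO cells (log2 difference 2.35; adjusted p = 6.25e-05). The arrestin ARRDC3 (2.57), the glycolytic regulator PFKFB3 (1.71) and the transcription factor KLF10 (0.72) also passed, with the KLF10 call lost under poly-A scaling (0.32; adjusted p = 0.315). HK2, a hexokinase (0.59), passed with the replicate block. With CEP701, TXNIP passed in the fit of all 8 arrays, at 7086 ± 447 with CEP701 and 3408 ± 203 with DMSO (1.05; adjusted p = 0.0411), a call lost when any 1 drug-arm array was left out and under poly-A scaling (0.55; adjusted p = 0.143). On the drug-arm arrays alone KLF10 (0.49) also passed as higher and PFKFB3 (-0.57) as lower, and with the block in the shRNA arm ARRDC3 (0.76) passed as higher besides these. With PRMT5 shRNA none passed in the fit of all 8 arrays. PFKFB3 differed by -1.06 (adjusted p = 0.0703), HK2 by -1.21 (adjusted p = 0.170) and TXNIP by -0.62, and with the replicate block these 3 passed as lower. HK2 also passed without PRMT5 shRNA replicate 2 (-1.62; adjusted p = 0.0211), and PFKFB3 after quantile normalization (-1.15; adjusted p = 0.0475) and for the mean of its probe sets (adjusted p = 0.0499). MLXIP, which encodes MondoA, and MGA, a MAX partner, were the 2 measured of 3 further partners, and neither passed in the fit of all 8 arrays. In scramble against DMSO cells MGA (-0.31) passed as lower under median scaling (-0.58; adjusted p = 0.0182), and MLXIP (0.46) as higher in the fit of those groups alone (adjusted p = 0.0496).

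Genes that act on MYC itself were also read. Of 17 measured genes of MYC protein turnover, the survival kinases PIM1 and PIM2, which are known to stabilise MYC, were lower with CEP701. No other gene of the list passed, where 2.04% of all genes passed as lower and 3.74% as higher. PIM1 averaged 725 ± 2.95 with CEP701 and 3455 ± 137 with DMSO (log2 difference -2.24; adjusted p = 7.96e-04), and PIM2 301 ± 23.9 with CEP701 and 1492 ± 192 with DMSO (-2.27; adjusted p = 3.69e-03). The PIM2 call was lost without CEP701 replicate 1 (adjusted p = 0.0751), CEP701 replicate 2 (adjusted p = 0.0592) or DMSO replicate 2 (adjusted p = 0.0744). On the drug-arm arrays alone, and with the replicate block in the shRNA arm, SKP2, a ubiquitin ligase subunit (-0.81), CIP2A, an inhibitor of the phosphatase that destabilises MYC (-0.76), and the ubiquitin ligase STUB1 (-0.34) also passed as lower with CEP701. That made 5 of the 17 lower in both fits, where 10.1% and 9.71% of all genes passed as lower. No gene of this list passed with PRMT5 shRNA, and PIM1 (-0.65; adjusted p = 0.297) did with the replicate block. In scramble against DMSO cells 2 were higher and 3 lower, 5 of 17 where 45.8% of all genes passed, and with the replicate block 3 were higher and 6 lower, 9 of 17 where 55.1% did. The lower ones without the block were CIP2A (-1.51), the mitotic kinase PLK1 (-1.18) and SKP2 (-1.15), whose call was lost without DMSO replicate 1 (adjusted p = 0.0896) or scramble replicate 2 (adjusted p = 0.0874).

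Of 16 measured genes of MYC transcription and mRNA control, CEP701 cells had 1 lower, FUBP1, which binds upstream of MYC (-0.92; adjusted p = 0.0213), and 1 higher, STAT5B (0.82; adjusted p = 0.0306), both calls lost when any 1 drug-arm array was left out. Over all genes 2.04% passed as lower and 3.74% as higher. For the mean of its probe sets FUBP1 was at -0.29 (adjusted p = 0.292) and STAT5B at 0.56 (adjusted p = 0.142), and under poly-A scaling STAT5B was at 0.32 (adjusted p = 0.376). In the fit with the shRNA-arm block and in that of the drug-arm arrays alone, STAT5A (0.42) and FOXO3 (0.43) also passed as higher and CNBP (-0.32), ELAVL1 (-0.57) and LIN28B (-0.76) as lower. That made 3 of the 16 higher and 4 lower in both fits. Over all genes 12.6% passed as higher in both, and 9.71% and 10.1% as lower. None passed with PRMT5 shRNA. In scramble against DMSO cells 7 were lower and 2 higher, where 20.3% of all genes passed as lower and 25.5% as higher. LIN28B, an RNA-binding protein that blocks let-7 processing, averaged 312 ± 129 in scramble and 6666 ± 81.4 in DMSO cells (-4.43; adjusted p = 3.24e-06), and IGF2BP1, which binds and stabilises MYC mRNA, 283 ± 56.6 in scramble and 1464 ± 231 in DMSO cells (-2.33; adjusted p = 3.20e-05).

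Cofactors of the network had no call within either arm in the fit of all 8 arrays. Of 15 measured MYC cofactors, 4 were lower and 1 higher in scramble than in DMSO cells, 5 of 15 where 45.8% of all genes passed. Among them were the paired helicases RUVBL1 (-1.89; adjusted p = 3.45e-03) and RUVBL2 (-1.19; adjusted p = 9.78e-03), the RUVBL2 call lost without DMSO replicate 2 (adjusted p = 0.0710) or scramble replicate 2 (adjusted p = 0.0699). With CEP701 the nearest were HCFC1 (0.87; adjusted p = 0.0650), which passed without PRMT5 shRNA replicate 1 (adjusted p = 0.0320) or replicate 2 (adjusted p = 0.0303), and WDR5 (-1.05; adjusted p = 0.0989), which passed without scramble replicate 1 (adjusted p = 0.0479) or replicate 2 (adjusted p = 0.0457) and under poly-A scaling (-1.55; adjusted p = 0.0453). Under the replicate block in the shRNA arm HCFC1 (adjusted p = 0.0113) passed as higher and WDR5 (adjusted p = 1.69e-03) as lower with CEP701. On the drug-arm arrays alone HCFC1 (adjusted p = 7.30e-03) and WDR5 (adjusted p = 3.47e-03) passed the same way, and RUVBL1 passed as lower. Of 10 measured genes of the SIN3 and HDAC corepressor, 3 were higher and 4 lower in scramble than in DMSO cells, 7 of 10 where 45.8% of all genes passed, with the histone-binding subunit RBBP4 at -0.99, SAP18 at -0.96, HDAC2 at -0.80 and ARID4B at 1.08, whose call was lost under poly-A scaling (0.68; adjusted p = 0.0777). Under the replicate block 3 were higher and 6 lower, where 29.9% of all genes passed as higher and 25.2% as lower. None passed with CEP701 or PRMT5 shRNA, with or without that block, and in the fit of all 8 arrays SIN3B (0.85; adjusted p = 0.232) and SAP30 (-0.23; adjusted p = 0.839) had the lowest p.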

How the data were processed

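RNA of 8 HEL samples, 4 groups of 2, was hybridised to Affymetrix 3′ expression arrays. Signal intensities were deposited by the authors as linear MAS5 values, made in Affymetrix Expression Console per the submitters' processing notes. No version is given in the sources used here. The 2%-trimmed mean was about 500 on every array, so each array had been scaled to one target. Such scaling removes a change shared by all transcripts. Precision is limited by there being 2 arrays a group.

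Of 54675 probe sets, 41097 name 1 gene, 1801 several and 11777 none, with 62 controls left out. Symbols were updated through RefSeq for 41043 and kept as given for 54. Probe sets above 59.98, the median signal of the table, on 2 arrays or more were kept, and each gene was represented by the one with the highest mean log2(signal + 10). The 14162 genes were fitted in limma 3.58.1 (R 4.3.3) by lmFit and eBayes with a trend, on 4 groups without a block, with 4 residual degrees of freedom, and p-values were adjusted by Benjamini-Hochberg. The steps were tested on simulated data.

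The labels give shRNA arrays a title suffix shared across both groups by replicate. Deviations from group means correlated across genes at r = 0.32 between arrays with the same suffix, and at r = -0.01 between drug-arm arrays with the same number, so the suffix was taken to pair the shRNA arrays and the number was not taken to pair the drug-arm arrays.

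The members and lists were chosen with earlier results of these data known. All members are named. The rule for each list was up to 4 genes that passed in the drug or shRNA comparison, or else the 2 of lowest p. Where no gene passed, not all of those 2 are given above, and some lists have none of them with PRMT5 shRNA. Genes named for scramble minus DMSO or for calls in other fits, and ODC1, SRM and CDKN1A with CEP701, were added after their values were seen. Alternatives were other added constants, filters, scalings, probe set rules, priors, fits and each array left out. MXD4 was not analysed here. Sequences are from RefSeq (GRCh38.p14), and figures were drawn with matplotlib 3.10.9.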

Additional observations from a re-analysis of the deposited data

Results flagged for a closer look

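For 6 listed genes the effect of CEP701 differed from that of PRMT5 shRNA in the contrast of the effects (limma, Benjamini-Hochberg adjusted over all genes, of which 1.43% passed). THBS1 had a difference between the effects of 4.26 ± 0.53 on the log2 scale (SE; adjusted p = 0.0132), from 4.18 with CEP701 and -0.08 with PRMT5 shRNA. NDRG1 had 3.32 ± 0.55 (adjusted p = 0.0287), from 1.60 with CEP701 and -1.73 with PRMT5 shRNA. PIM1 had -1.59 ± 0.23 (adjusted p = 0.0210), from -2.24 with CEP701 and -0.65 with PRMT5 shRNA. PIM2 had -1.98 ± 0.35 (adjusted p = 0.0339), from -2.27 with CEP701 and -0.28 with PRMT5 shRNA. FUBP1 had -1.23 ± 0.24 (adjusted p = 0.0457), from -0.92 with CEP701 and 0.31 with PRMT5 shRNA. CDK4 had -1.102 ± 0.21 (adjusted p = 0.0393), from -0.82 with CEP701 and 0.28 with PRMT5 shRNA. None of the 9 measured members was among them. All 6 calls were lost when any 1 drug-arm array was left out and without the trend in the prior variance. All 6 passed with the replicate block in the shRNA arm, where 17.3% of all genes did, as did 15 of the 34 MYC-activated targets, as lower. With 2 arrays a group, no array could be tested for standing apart from its group.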

How the results depend on the processing

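Over the alternatives tried, 1854 values of single genes kept their direction and their side of the threshold, 73 lost and 46 gained a call, and 49 changed sign. Where no cause is given below, the cause was not tested. The number of members that passed with CEP701 (0) became 1 with scaling to the poly-A controls, where 1070 of the 14162 genes passed. It became 3 on the drug-arm arrays alone, where 22.7% of all genes passed. It became 5 with the replicate block in the shRNA arm, where 22.3% of all genes passed. With that replicate block the number with PRMT5 shRNA (0) became 3, where 1.74% of all genes passed, and PRMT5 itself passed (-1.52). That for the difference of the effects (0) became 3, where 17.3% of all genes passed. Calls of listed genes that this block added in the other comparisons stand beside those genes. A replicate block in the drug arm changed no member count. Leaving out 1 array at a time changed the members called for the difference of the effects, where MXI1 ran from 1.27 to 1.89. It also changed them for scramble minus DMSO, where MNT ran from 0.59 to 0.68. The CEP701 calls of CDK4, CEBPA, FUBP1, STAT5B, NDRG1 and TXNIP were lost without the trend in the prior variance (adjusted p = 0.0765 to 0.127) and with a replicate block in the drug arm (adjusted p = 0.0521 to 0.0866), and those of NDRG1 and TXNIP also under median, quantile or poly-A scaling and without the signal filter. Over all genes the calls ran from 6 to 3208 around 819 with CEP701, from 0 to 247 around 21 with PRMT5 shRNA, from 0 to 2456 around 203 for the difference of the effects and from 4520 to 7801 around 6486 for scramble minus DMSO. The fit of only the groups compared was not run for the difference of the effects, which needs all 4 groups.

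Some sign changes were of values near 0, such as MLX with CEP701 (-0.01). Others were of larger values in the main fit. With CEP701 these included HCFC1 (0.87), MYCN (-0.70), MNT (0.46), MXI1 (0.45) and MXD3 (0.45), and with PRMT5 shRNA MYC (0.53). The values below are those after the change. With CEP701, quantile normalization turned MYCL (-0.040) and MLX (0.018), and poly-A scaling turned MYCL (-0.38), MAX (-0.14), MXD3 (-0.057), MXI1 (-0.049), MNT (-0.045), MLXIP (-0.15) and ARID4B (-0.13). Poly-A scaling also turned MXD3 (-0.31) and MNT (-0.016) for the difference of the effects, and MYCN (-0.26) in scramble minus DMSO, as median scaling did (-0.14). The mean of a gene's probe sets turned MGA (0.22) with CEP701, MNT (0.55) with PRMT5 shRNA and MYCN (0.30) for the difference of the effects. Without probe sets marked _x_at or _s_at, which leaves MYC none, CEP701 values turned for MYCN (0.60), MAX (-0.44), MLX (0.18), MGA (0.34) and HCFC1 (-1.41). PRMT5 shRNA values then turned for MLX (-0.058) and CNBP (-0.15), differences of the effects for MYCN (0.62), MAX (-0.032) and MLX (0.24), and scramble minus DMSO for MLX (0.27) and MGA (0.052).

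Leaving out 1 array at a time with CEP701 gave ranges across 0 for MYCL (-0.69 to 0.93), MLX (-0.026 to 0.014), MLXIP (-0.10 to 0.80) and MGA (-0.18 to 0.10). With PRMT5 shRNA it did so for MYC (-0.039 to 1.09), MAX (-0.48 to 0.090), MXD1 (-0.45 to 0.32), MXD3 (-0.013 to 0.44) and MLXIP (-0.28 to 0.039). For the difference of the effects it did so for MXD3 (-0.074 to 0.54), MYCN (-0.33 to 0.27) and MYCL (-1.30 to 0.32), and in scramble minus DMSO for MAX (-0.55 to 0.024) and MYCN (-0.16 to 0.44). The lone array of a group was then assumed to vary like the other groups. MYCL signals in the drug arm, under the median of all values, limit what its values there can show.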

Other observations

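The patterns of the antagonists were compared with those of all genes in the same way as that of MYC, after their values had been seen. Closest to MXI1 were AKAP12, a scaffold protein for protein kinase A (root mean square difference 0.160), and PDGFRA, a receptor for platelet-derived growth factor (0.184), against a median of 1.24 over all genes. AKAP12 differed by -1.41 and PDGFRA by -0.85 on the log2 scale with PRMT5 shRNA, by 0.59 and 0.24 with CEP701, and by 3.31 and 2.72 in scramble against DMSO cells. Closest to MXD1 were LYST, a regulator of lysosomal trafficking (0.165), and CASK, a scaffold kinase (0.165), against a median of 1.21. In scramble against DMSO cells LYST differed by 2.54 and CASK by 2.31, and CPA3, a mast cell protease that was also among the 5 closest (0.186), by 2.84. MARCHF8 (0.171) and GNPTAB (0.183) were closer than CPA3, and differed by 2.90 and 2.18. All these genes were chosen for likeness to MXI1 or MXD1 on these same 8 arrays. Their shared directions follow from that choice and add no evidence on the differences of MXI1 and MXD1.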
